A study of Mus musculus with 4 samples.

Results

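The 9 mouse Pax genes, Pax1 to Pax9, were taken by symbol from a table of 24453 genes measured in the embryonic lingual epithelium. They were selected on their measured change between the 2KO and control libraries, which was known when the family was proposed, so their values and fold changes are given as a description, without a test. Pax9 is the family member known from oral epithelium, and the other 8 were set against it as silent. The data went against that for Pax1: it had 27.2 to 51.4 FPKM in all 4 libraries, while Pax9 had 44.1 to 97.6 FPKM.

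The embryos labelled 2KO carried the genotype Ring1a-/- Ring1b fl/fl with the K14-Cre+ transgene, which deletes Ring1b where the keratin 14 promoter is active, that is in basal cells of stratified epithelium. The others carry the genotype label Control, with no allele given. Both groups had 2 libraries from tongues at embryonic day 16, the posterior circumvallate papilla cut away and EpCAM-stained cells sorted. Whether the 2 libraries of a group came from separate embryos is not stated, so their spread may be technical. RING1A and RING1B are the catalytic subunits of Polycomb repressive complex 1, which ubiquitinates histone H2A and keeps developmental genes off.

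PAX proteins are transcription factors that bind DNA through a paired domain, and each marks particular embryonic tissues. Pax1 and Pax9 form a subgroup of the pharyngeal pouches and the sclerotome, and mouse Pax9 is needed for tooth, palate and filiform papilla development. Pax2, Pax5 and Pax8 form a subgroup of kidney, thyroid, midbrain and B cells, Pax3 and Pax7 one of neural crest and muscle progenitors, and Pax4 and Pax6 one of pancreatic islets, eye and brain. Many work in a network with genes of the Eya and Dach families and sine oculis homeobox genes such as Six2.

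The libraries held 18039767 and 20545262 counts in the 2KO group, against 20624055 and 16256569 counts in the control group. The rRNA transcript Rn45s took 20.2% to 22.9% of 2KO counts, against 15.3% to 16.7% of control counts. Ring1, which encodes RING1A, had 16.8 and 15.0 CPM in 2KO libraries, against 9.02 and 8.57 CPM in control libraries (log2 fold change 0.85, edgeR adjusted p = 0.101). Rnf2, which encodes RING1B, had 62.9 and 62.4 CPM in 2KO libraries, against 34.0 and 51.3 CPM in control libraries (log2 fold change 0.56, edgeR adjusted p = 0.126). Neither was lower in the 2KO libraries, and gene-level counts, which do not show which exons were read, do not check the genotype labels. CPM here means reads scaled to the TMM-adjusted library size, and FPKM is the deposited value, scaled also to transcript length, the scale on which levels of different genes are compared.

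Of the 9 members, 6 passed the filter on low counts. Among the genes called at an adjusted p of 0.05 in the fit over all genes, 5 were members, 4 higher (Pax1, Pax2, Pax3 and Pax6) and 1 lower (Pax9). The members were chosen with this contrast known, so that count is a description and no test of them, and nothing is read from it. The Pax6 call was lost with limma-voom, with replicate number as a block, without control replicate 2 and without 2KO replicate 1. Pax6 had no call on the FPKM scales either. The Pax1 call was lost without 2KO replicate 2 and with limma on log2 of FPKM. Over the 15336 genes tested, 11.9% passed, 7.00% higher and 4.92% lower. Both 2KO libraries lay above both control libraries for 5 of the 6, against 29.0% of all tested genes, and below them for 1, Pax9, against 28.7%. The members were chosen on this contrast, so these shares too are a description and nothing is read from them. Pax2, with 0 control counts, passed the filter through its 2KO libraries alone. Pax4, Pax5 and Pax8 had too few counts to test.

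Pax9 was lower in the 2KO libraries. It had 44.1 and 45.2 FPKM in 2KO libraries (44.7 ± 0.793, SD, n = 2), against 92.7 and 97.6 FPKM in control libraries (95.2 ± 3.47, SD, n = 2). In CPM it had 195 and 205 in 2KO libraries, against 414 and 459 in control libraries. The control level was 2.18-fold that in 2KO libraries, a log2 fold change of -1.13 (SE 0.145), and the groups did not overlap. In these bulk samples fewer cells of a type and less RNA per cell cannot be told apart. The Pax9 gene lies on chromosome 12 from 56691767 to 56712822, forward strand (GRCm38), and its exons overlap the antisense gene Slc25a21. Slc25a21 had 3.18 and 4.06 CPM in 2KO libraries, against 7.55 and 9.62 CPM in control libraries, and did not pass the test (log2 fold change -1.24, edgeR adjusted p = 0.110). Reads of the shared exons cannot be told apart, since the strand setting of the counting is not given in the sources used here. By FPKM rank among all genes, Pax9 stood at 1288 and 1260 in 2KO libraries, against 526 and 485 in control libraries.

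Pax1, the closest relative of Pax9, moved the other way. It had 46.6 and 51.4 FPKM in 2KO libraries (49.0 ± 3.37, SD, n = 2), against 32.2 and 27.2 FPKM in control libraries (29.7 ± 3.59, SD, n = 2). The CPM were 102 and 118 in 2KO libraries, against 66.4 and 54.2 in control libraries. The 2KO level was 1.82-fold the control level (log2 fold change 0.86, SE 0.182), with no overlap between groups. The Pax1 gene lies on chromosome 2 from 147361925 to 147393295, forward strand, and its exons overlap the antisense transcript AI646519, which had 1.59 and 3.96 CPM in 2KO libraries, against 1.72 and 0.704 CPM in control libraries. Over the count-based alternatives its log2 fold change lay between 0.73 and 1.04. Its FPKM rank was 1200 and 1088 in 2KO libraries, against 1995 and 2311 in control libraries.

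**Figure D1:**
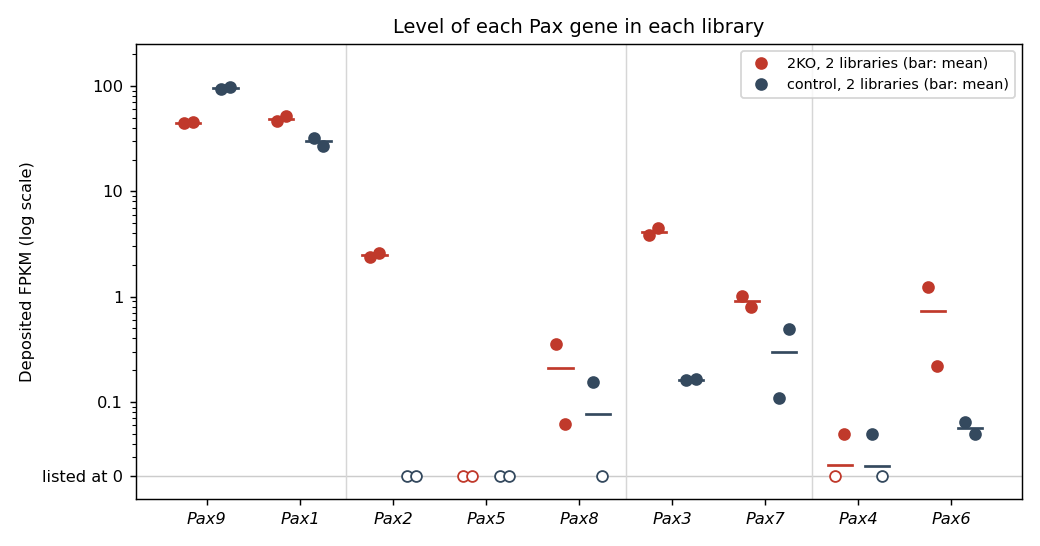
Deposited FPKM of the 9 Pax genes on a log axis, 1 point per library, 2KO (left of each pair) and control (right), with the group mean as a bar and open points at the base where a gene was listed at 0. Pax9 sat at 44.1 to 45.2 FPKM in 2KO libraries and at 92.7 to 97.6 FPKM in control libraries, while Pax1, Pax2 and Pax3 were higher in both 2KO libraries than in both control libraries.

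Pax9 and Pax1 were at similar levels in the 2KO libraries. The ratio of Pax9 to Pax1 in FPKM was 0.947 and 0.881 in 2KO libraries, against 2.88 and 3.59 in control libraries. Of all reads on Pax genes, Pax9 took 59.4% and 57.7% in 2KO libraries (95% Clopper-Pearson intervals 58.1% to 60.7% and 56.6% to 58.9%), against 85.7% and 88.9% in control libraries (85.0% to 86.4% and 88.2% to 89.5%). Pax1 took 31.1% and 33.2% of them in 2KO libraries, against 13.8% and 10.5% in control libraries. The other 7 genes together had 551 and 653 counts in 2KO libraries, 9.51% and 9.11% of Pax reads, against 49 and 58 counts in control libraries, 0.497% and 0.659%. A share of reads grows with transcript length, so the shares compare libraries and not genes, and by FPKM the Pax9 share was 44.3% and 43.2% in 2KO libraries, against 73.9% and 77.8% in control libraries. The intervals cover counting error only, and amplified reads are not independent molecules. Summed over the family the FPKM were 99.5 and 104.8 in 2KO libraries, against 125.5 and 125.5 in control libraries.

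**Figure D2:**
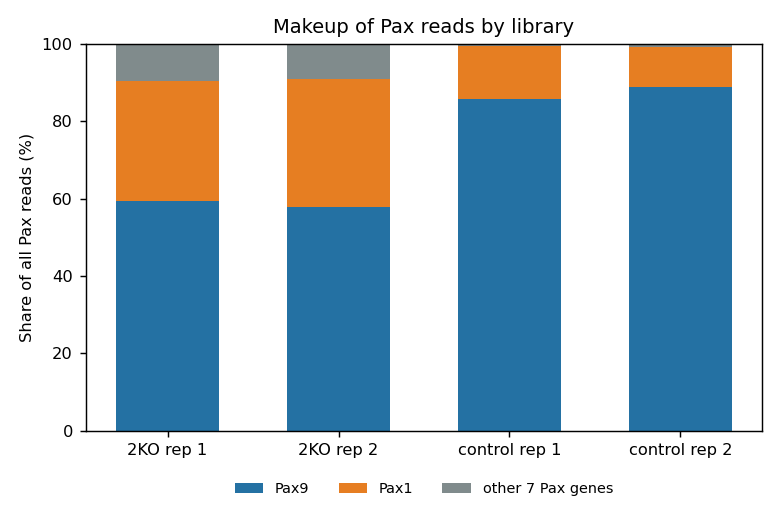
Share of all Pax reads, in percent, taken by Pax9, Pax1 and the other 7 Pax genes in each library, 2KO left and control right, as stacked bars from 0 to 100. Pax9 holds 57.7% to 59.4% in 2KO libraries and 85.7% to 88.9% in control libraries.

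Among Pax2, Pax5 and Pax8, Pax2 was the member that moved. Pax2, needed in mouse for kidney and inner ear development, had 112 and 168 counts in 2KO libraries (6.35 and 8.31 CPM, 2.36 and 2.62 FPKM), against 0 counts in both control libraries. Against the limit of 3 counts over the control group, 0.0801 CPM, the summed 2KO counts put it at least 92.3-fold higher. It lies on chromosome 19 from 44756045 to 44837871, forward strand. Pax8, a regulator of thyroid and kidney genes, had 14 and 4 counts in 2KO libraries, against 9 and 7 counts in control libraries, so the groups overlapped. In FPKM that was 0.354 and 0.0619 in 2KO libraries, against 0.155 and 0 in control libraries. Pax5, the B cell commitment factor, had 0 counts in all 4 libraries, which sets the detectable level at 3 counts a group (0.0793 CPM in 2KO libraries and 0.0801 CPM in control libraries). The exons of Pax8 overlap the antisense gene Gm13415, and those of Pax5 overlap the antisense genes 5730488B01Rik and Gm12462. The 14 thyroid and kidney genes looked at beside them summed to 62.4 and 53.8 CPM in 2KO libraries, against 31.8 and 27.3 CPM in control libraries. Of the 10 tested 1 was higher, against 7.00% of all tested genes, and their median log2 fold change was 1.39. The 1 was Gata3, a factor of kidney duct, epidermis and T cells (log2 fold change 3.88, SE 0.470, edgeR adjusted p = 0.000549). Foxe1, a thyroid and oral epithelial factor, had 16.1 and 13.2 CPM in 2KO libraries, against 10.8 and 11.4 CPM in control libraries. Nkx2-1, a thyroid and lung factor, had 11 and 29 counts in 2KO libraries, against 0 in both control libraries, and did not pass (edgeR adjusted p = 0.0507). Wt1, a kidney factor, had 97 and 8 counts in 2KO libraries, against 2 and 1 counts in control libraries, and was not tested. Tg, the thyroglobulin gene, had 2.61 and 2.82 CPM in 2KO libraries, against 2.55 and 2.70 CPM in control libraries. The part of these genes in the Pax2 level was not tested. The 10 B cell genes summed to 11.3 and 3.86 CPM in 2KO libraries, against 2.65 and 2.23 CPM in control libraries, with 0 of 2 tested passing by edgeR (1 at an unadjusted p under 0.05, 0 with limma-voom, 0 with DESeq2). Cd79a, a part of the B cell receptor, had 114 and 50 counts in 2KO libraries, against 25 and 1 counts in control libraries (log2 fold change 2.76, edgeR adjusted p = 0.122). Ebf1, a B cell and mesenchymal factor, had 73 and 26 counts in 2KO libraries, against 16 and 30 counts in control libraries (log2 fold change 1.09, edgeR adjusted p = 0.485), and Ms4a1, Blk and Rag2 were at 0 in every library.

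Pax3 and Pax7 were both low in the control libraries. Pax3, a factor of neural crest and muscle progenitors, had 14.2 and 17.0 CPM in 2KO libraries (3.81 and 4.48 FPKM), against 0.637 and 0.528 CPM in control libraries (0.161 and 0.165 FPKM). It was 26.3-fold higher (log2 fold change 4.72, SE 0.482), and its groups did not overlap. Pax3 lies on chromosome 1 from 78101267 to 78197134 and Pax7 on chromosome 4 from 139737062 to 139833528, both on the reverse strand. Pax7, a factor of muscle stem cells and cranial crest, had 3.80 and 3.71 CPM in 2KO libraries, against 0.392 and 1.76 CPM in control libraries (log2 fold change 1.81, SE 0.863). In FPKM Pax7 had 1.02 and 0.794 in 2KO libraries, against 0.108 and 0.490 in control libraries. The 2 control libraries of Pax7 differed from each other more than its 2KO libraries did, and without control replicate 2 its log2 fold change was 3.25, and without control replicate 1 it was 1.11. Control replicate 2 was also the library with the most muscle RNA: the 17 skeletal muscle genes summed to 122 and 148 CPM in 2KO libraries, against 132 and 503 CPM in control libraries, with Myf6 at 0 throughout and Ttn, the sarcomere spring, at 43.2 and 38.9 CPM in 2KO libraries, against 34.3 and 222 CPM in control libraries. By edgeR 0 of the 14 tested muscle genes passed (5 at an unadjusted p under 0.05, 0 with limma-voom, 0 with DESeq2; median log2 fold change -1.20), and Met, a receptor of muscle precursors and epithelium, had 51.1 and 59.1 CPM in 2KO libraries, against 61.5 and 61.5 CPM in control libraries. Met and Ttn together made up most of each muscle sum. The part of muscle genes in the Pax3 and Pax7 values was not tested. The 14 neural crest, melanocyte and Schwann cell genes summed to 123 and 153 CPM in 2KO libraries, against 167 and 119 CPM in control libraries, with 0 of 10 tested passing by edgeR (1 at an unadjusted p under 0.05, 0 with limma-voom, 1 with DESeq2), and Tyr and Tyrp1, the pigment enzymes, were at 0. Most of each sum came from 1 gene not reported here by name, so the sums mainly follow that gene. Sox10, the crest factor, had 2.67 and 6.28 CPM in 2KO libraries, against 7.01 and 6.57 CPM in control libraries, and Foxd3 had 3.18 and 3.56 CPM in 2KO libraries, against 0.392 and 0.469 CPM in control libraries.

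Pax6 and Pax4 were low in all libraries. Pax6, the eye and forebrain regulator on chromosome 2 from 105668900 to 105697364, forward strand, had 105 and 56 counts in 2KO libraries, against 14 and 8 counts in control libraries, which is 5.95 and 2.77 CPM, against 0.686 and 0.469 CPM (log2 fold change 2.90, SE 0.825). In FPKM the 2KO libraries were 1.23 and 0.218, against 0.0646 and 0.0493 in control libraries, so the 2KO libraries differed from each other more on that scale than in counts. Over the count-based alternatives the log2 fold change of Pax6 lay between 2.24, without 2KO replicate 1, and 3.34, without 2KO replicate 2. Pax4, a factor of islet beta and delta cells, had 3 and 7 counts in 2KO libraries, against 5 and 4 counts in control libraries. Among the eye, neural and pancreas genes, Neurod1, Ins1, Ins2 and Rax were at 0 in every library. Of the 5 tested, 2 were higher and 1 lower, against 7.00% and 4.92% of all tested genes. Nkx6-1, a neural tube and beta cell factor, had 6.46 and 6.93 CPM in 2KO libraries, against 0.0490 and 0.0587 CPM in control libraries (ratio 126, 95% counting interval 34.4 to 1043, edgeR adjusted p = 0.000818). The other higher gene was Nkx2-2, given below with the neighbours of Pax1. The neuronal tubulin gene Tubb3 was lower (log2 fold change -2.40, SE 0.498, edgeR adjusted p = 0.0115).

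In order of level, the 2KO libraries had Pax1 (49.0 FPKM) and Pax9 (44.7 FPKM) close together at the top, then Pax3 (4.15 ± 0.471), Pax2 (2.49 ± 0.181), Pax7 (0.906 ± 0.159), Pax6 (0.725 ± 0.717) and Pax8 (0.208 ± 0.207). Pax7 and Pax6 did not differ beyond their spread there. The control libraries had Pax9 (95.2 FPKM) above Pax1 (29.7 FPKM), with the rest under 0.5 FPKM, and Pax7 (0.299 ± 0.270), Pax3 (0.163 ± 0.00224), Pax8 (0.0773 ± 0.109) and Pax6 (0.0569 ± 0.0108) overlapping in part (SD, n = 2 throughout). Among tested genes with a symbol that is not a predicted model, those nearest to Pax9 in centred log2 CPM were Tipin (distance 0.0821), Zcchc4 (0.0830), Tnfaip6 (0.0922), Ufsp2 (0.0974) and Emc7 (0.0991), by Euclidean distance over 14945 genes and 4 libraries. Nearest to Pax3 were Uchl1 (0.180), Onecut2 (0.191), Hoxb13 (0.212), Slc2a3 (0.231) and Hoxb8 (0.235). A prior of 2 counts was added before the log. Hoxb13 and Hoxb8 had 0 CPM in both control libraries, so their distances rest on that prior. Tnfaip6 was low, at 0.794 and 0.891 CPM in 2KO libraries, against 1.81 and 1.94 CPM in control libraries.

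RefSeq promoter windows (GRCm38.p6) matched 7 of the 9 genes. A stretch before a RefSeq start of Pax9, Pax1, Pax2 and Pax6 is printed for each, since they differ in CpG dinucleotides, and dense CpG stretches are where mammalian Polycomb complexes are known to gather. Each is 250 bases, 5′ to 3′ on the forward strand, with every CG in capitals: Pax9 at chr12:56695221-56695470, inside an intron of a longer Pax9 transcript; Pax1 at chr2:147364744-147364993, in the body of Pax1; Pax2 at chr19:44755502-44755751, with no gene annotated there and a start that GENCODE transcripts do not share; and Pax6 at chr2:105668646-105668895, in an intron of Pax6os1.
Pax9: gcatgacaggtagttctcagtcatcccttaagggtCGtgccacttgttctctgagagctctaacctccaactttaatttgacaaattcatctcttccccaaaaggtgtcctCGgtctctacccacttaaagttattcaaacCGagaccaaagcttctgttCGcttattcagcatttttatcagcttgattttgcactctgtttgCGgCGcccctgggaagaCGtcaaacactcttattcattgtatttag
Pax1: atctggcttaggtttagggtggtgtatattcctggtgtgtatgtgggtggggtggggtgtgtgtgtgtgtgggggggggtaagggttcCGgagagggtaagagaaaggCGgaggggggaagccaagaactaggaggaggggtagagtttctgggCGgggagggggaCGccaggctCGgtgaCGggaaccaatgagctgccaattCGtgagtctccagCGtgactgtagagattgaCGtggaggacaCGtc
Pax2: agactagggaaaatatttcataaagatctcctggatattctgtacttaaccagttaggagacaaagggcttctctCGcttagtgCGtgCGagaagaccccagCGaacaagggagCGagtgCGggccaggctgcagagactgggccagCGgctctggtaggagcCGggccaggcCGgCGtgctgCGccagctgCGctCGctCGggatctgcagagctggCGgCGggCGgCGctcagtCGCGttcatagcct
Pax6: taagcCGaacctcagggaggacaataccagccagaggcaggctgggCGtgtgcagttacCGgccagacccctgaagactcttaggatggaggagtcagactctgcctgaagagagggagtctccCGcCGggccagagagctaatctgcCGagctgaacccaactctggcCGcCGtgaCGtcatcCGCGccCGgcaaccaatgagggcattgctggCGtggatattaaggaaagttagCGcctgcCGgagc
Searched for as the letters CG, which read the same on both strands, the Pax9 window held 7 and the Pax1 window 10, near the median of 6 over 32851 windows of the same length. RefSeq gave Pax2 3 windows, which held 5, 20 (the one printed) and 25, and Pax6 2 windows with 15 each. The windows of Pax5, Pax7 and Pax8, not printed, held 19, 13 and 6. As many CG or more were found in 46.3% of all windows for Pax9, 37.8% for Pax1, 55.6%, 17.9% and 10.7% for the 3 of Pax2 and 27.3% for Pax6. The annotated Pax9 and Pax1 genes begin upstream of their windows, at 56691767 and 147361925. The sequence before those starts was not counted. The counts describe letters, not binding.

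The 2 nearest listed genes on each side of each Pax gene, predicted models and small RNAs left out, gave 36 neighbours. Of the 30 tested, 6 were higher and 2 lower, against 7.00% and 4.92% of all tested genes, with a median log2 fold change of -0.13, against 0.01 over all tested genes. Nkx2-9, a homeobox gene 78.5 kb from Pax9, had 4.54 and 5.79 CPM in 2KO libraries, against 0 in both control libraries, at least 65.0-fold higher (edgeR adjusted p = 0.00189). Nkx2-9 thus moved the other way from Pax9. Prps1l3, whose exons overlap those of Mipol1, had 40.4 and 38.9 CPM in 2KO libraries, against 57.5 and 78.8 CPM in control libraries (log2 fold change -0.78, edgeR adjusted p = 0.0327). Nkx2-2, a homeobox gene 168 kb from Pax1 with the antisense Nkx2-2os, had 1.64 and 1.19 CPM in 2KO libraries, against 0 in both control libraries, at least 17.5-fold higher (edgeR adjusted p = 0.0310), a call lost when any library was left out. Foxa2, further from Pax1, did not pass (log2 fold change 0.37, edgeR adjusted p = 0.513). Sema4g, a semaphorin 151 kb from Pax2, had 41.1 and 47.0 CPM in 2KO libraries, against 13.2 and 13.8 CPM in control libraries (log2 fold change 1.70, edgeR adjusted p = 0.00105). Near Pax3, Epha4 did not pass (log2 fold change -0.29, edgeR adjusted p = 0.253) and Slc4a3, 2539 kb away, was higher (log2 fold change 1.44, edgeR adjusted p = 0.0140). Cacna1b, a calcium channel gene 128 kb from Pax8, was higher (log2 fold change 2.96, edgeR adjusted p = 0.0151). Rcn1 near Pax6 was lower (log2 fold change -0.77, edgeR adjusted p = 0.0186). Without 2KO replicate 1 Prps1l3 and Rcn1 lost their calls, without 2KO replicate 2 Prps1l3 and Slc4a3 did, and without control replicate 2 Prps1l3 did. The antisense transcript Paupar, 7.56 kb from Pax6, had 0.964 and 0.0495 CPM in 2KO libraries, against 0 in control libraries, and was not tested.

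**Figure D3:**
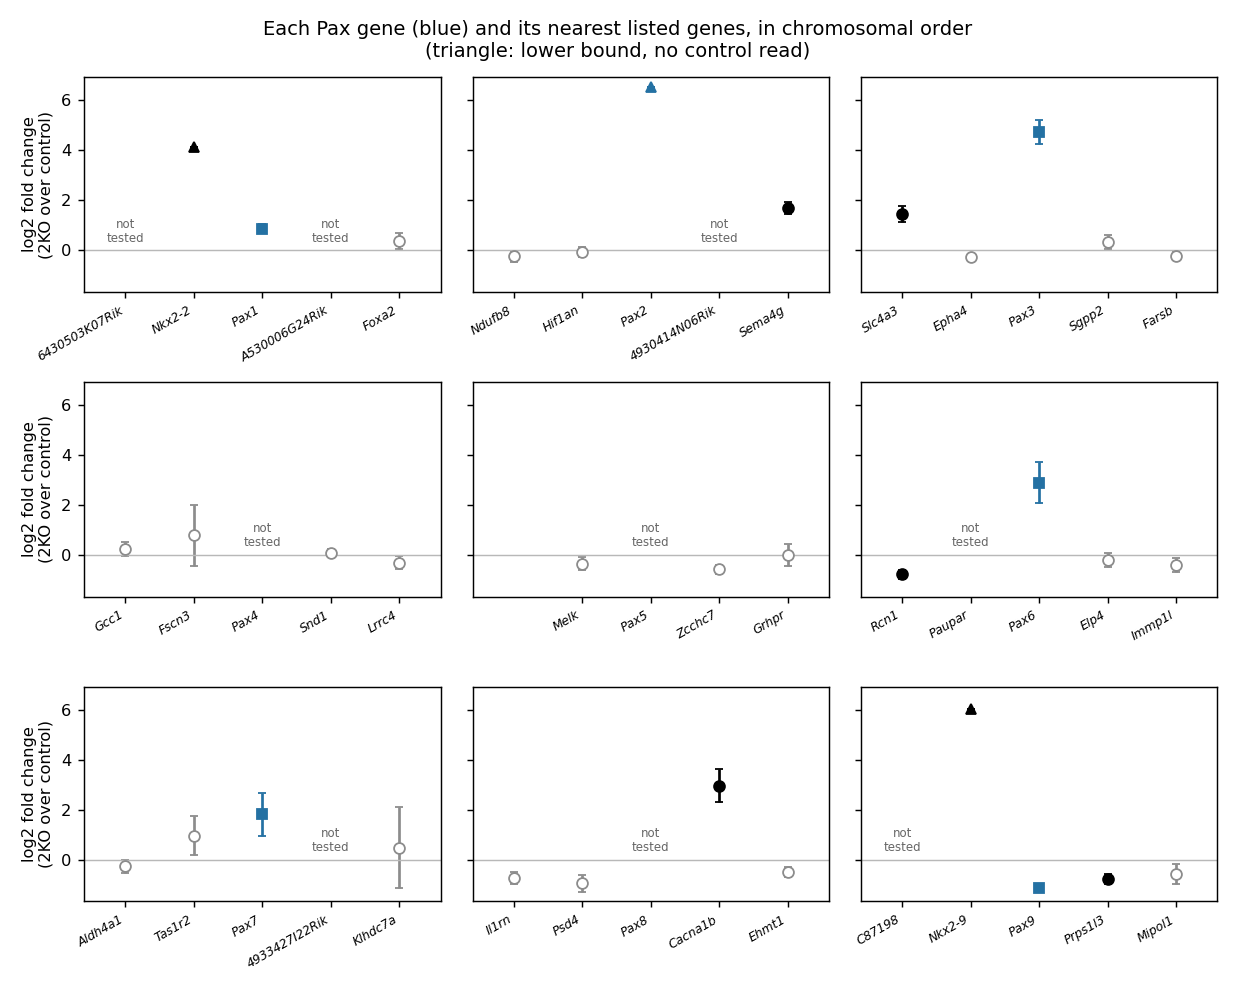
log2 fold change, 2KO over control, of each Pax gene (blue) and its nearest listed genes in chromosomal order, with the standard error as a bar, filled points for genes that passed the test, open points for those that did not, and triangles for lower bounds of genes with no control read. Pax genes are filled whether or not they passed, and untested genes are written as such. Nkx2-9, Nkx2-2 and Sema4g were higher beside Pax9, Pax1 and Pax2.

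The network of Six2, its relatives, and Eya and Dach genes, partners of PAX proteins in many organs, was mostly higher. This list, like the other lists and the neighbours, was chosen with earlier results of these data known. The shares called are therefore a description and no test of a list. Of 12 listed, 11 were tested and 8 were higher, with a median log2 fold change of 1.84, against 0.01 over all tested genes, where 7.00% were higher. Six2 had 24.0 and 28.0 CPM in 2KO libraries, against 0.931 and 2.41 CPM in control libraries (log2 fold change 3.98, SE 0.440, edgeR adjusted p = 0.000362). Six3, a forebrain and eye factor, was at least 37.9-fold higher (edgeR adjusted p = 0.00777), though its exons overlap antisense transcripts. Eya2, Eya4 and Dach1 were higher too (log2 fold changes 1.58, 1.88 and 2.12, edgeR adjusted p = 0.00517, 0.00857 and 0.0176). Six4 and Eya1 also passed (log2 fold changes 1.66 and 1.84, edgeR adjusted p = 0.0245 and 0.0186), Six4 losing its call with DESeq2, and Eya3 did not (log2 fold change -0.18, edgeR adjusted p = 0.566). With limma on log2(FPKM + 1) and log2(FPKM + 0.1), Six4, Eya1, Eya4 and Dach1 lost their calls.

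Among 26 partners of Pax9 and genes of palate, tooth and pouch development, 20 were tested and 4 were higher, against 7.00% of all tested genes, with a median log2 fold change of 0.83. Barx1, a homeobox gene of molar and stomach mesenchyme, had 24.9 and 30.7 CPM in 2KO libraries, against 1.72 and 1.35 CPM in control libraries (log2 fold change 4.17, SE 0.347, edgeR adjusted p = 7.63e-05). Msx2, whose relative Msx1 partners PAX9, was higher by 2.64 on the log2 scale (SE 0.382, edgeR adjusted p = 0.00154). Osr2, a palate factor, was higher by 2.11 (SE 0.519, edgeR adjusted p = 0.0248), a call lost with DESeq2. Kdm6b, a demethylase of histone H3 lysine 27, was higher by 1.08 (SE 0.167, edgeR adjusted p = 0.00226), though Kdm6bos overlaps it.

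Hard keratins and filiform papilla genes, of which some are reported as lost in mouse tongue without Pax9, had 11 of 19 tested, 1 higher and 4 lower, against 7.00% and 4.92% of all tested genes (median log2 fold change -1.27, against 0.01 over all). Krt84 had 0.113 and 0 CPM in 2KO libraries, against 47.0 and 17.7 CPM in control libraries, a control over 2KO ratio of 637 (95% counting interval 176 to 5264, edgeR adjusted p = 8.65e-05). Krt36 had 0.113 and 0 CPM in 2KO libraries, against 6.96 and 2.82 CPM in control libraries, a control over 2KO ratio of 96.0 (26.2 to 799, edgeR adjusted p = 0.00729). Krt35 was lower by 3.96 on the log2 scale and Hoxc13, a hair and nail factor, by 1.27 (edgeR adjusted p = 0.0186 and 0.0361), the second lost without control replicate 2 or 2KO replicate 2. Of the list, Msx2 was the gene that was higher.

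Tongue and oral differentiation genes fell in part: 18 of 20 were tested, 9 were lower, against 4.92% of all tested genes, with a median log2 fold change of -1.61. Krt24 (log2 fold change -3.96, edgeR adjusted p = 8.65e-05), Krt6a (-1.52, edgeR adjusted p = 0.000162), Krt6b (-4.23, edgeR adjusted p = 0.000197), Krt13 (-2.75, edgeR adjusted p = 0.000491), Krt16 (-3.41, edgeR adjusted p = 0.000523) and Krt76 (-3.81, edgeR adjusted p = 0.00879) led them, the last lost without control replicate 1 and with limma-voom. Epidermal skin-type genes had 7 tested of 27, 1 higher and 2 lower (7.00% and 4.92% of all tested genes). The cornified envelope gene Lor was higher by 2.09 (SE 0.446, edgeR adjusted p = 0.0129), lost without 2KO replicate 2. Rptn (control over 2KO ratio 64.7, counting interval 11.2 to 2595, edgeR adjusted p = 0.0351) and Asprv1 (log2 fold change -1.15, edgeR adjusted p = 0.0320) were lower, Rptn losing its call when any library was left out and Asprv1 without 2KO replicate 2. Rptn also lost its call with limma-voom and with the replicate block, and Asprv1 with limma on log2(FPKM + 1) and log2(FPKM + 0.1).

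Epithelial genes themselves were partly lower in the 2KO libraries. The 10 summed to 14658 and 15028 CPM in 2KO libraries, against 23682.5 and 19603 CPM in control libraries, and 4 of 10 passed as lower, against 4.92% of all tested genes: Krt5, Krt14, Perp and Dsp (log2 fold changes -0.45, -0.72, -0.95 and -1.23, edgeR adjusted p = 0.0392, 0.0248, 0.00129 and 0.000491), the calls of Krt5 and Krt14 lost without control replicate 1 and that of Krt5 also with upper quartile scaling. Epcam, the marker used for the sort, had 216 and 245 CPM in 2KO libraries, against 221 and 189 CPM in control libraries. Mesenchymal genes summed to 387 and 356 CPM in 2KO libraries, against 312 and 381 CPM in control libraries, with 1 of 10 lower, Postn (log2 fold change -0.99, edgeR adjusted p = 0.0419), a call lost with upper quartile scaling and without 2KO replicate 1, and 4.92% of all tested genes lower. Endothelial genes summed to 45.9 and 65.3 CPM in 2KO libraries, against 35.8 and 27.1 CPM in control libraries, with 0 of 10 passing by edgeR (2 at an unadjusted p under 0.05, 0 with limma-voom, 1 with DESeq2). Blood genes summed to 14.0 and 13.4 CPM in 2KO libraries, against 11.2 and 10.7 CPM in control libraries, with 0 of 4 passing by edgeR (1 at an unadjusted p under 0.05, 0 with limma-voom, 0 with DESeq2) and the globins Hbb-bs and Hba-a1 at 0. The part of these sums in the Pax values was not tested.

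**Figure D4:**
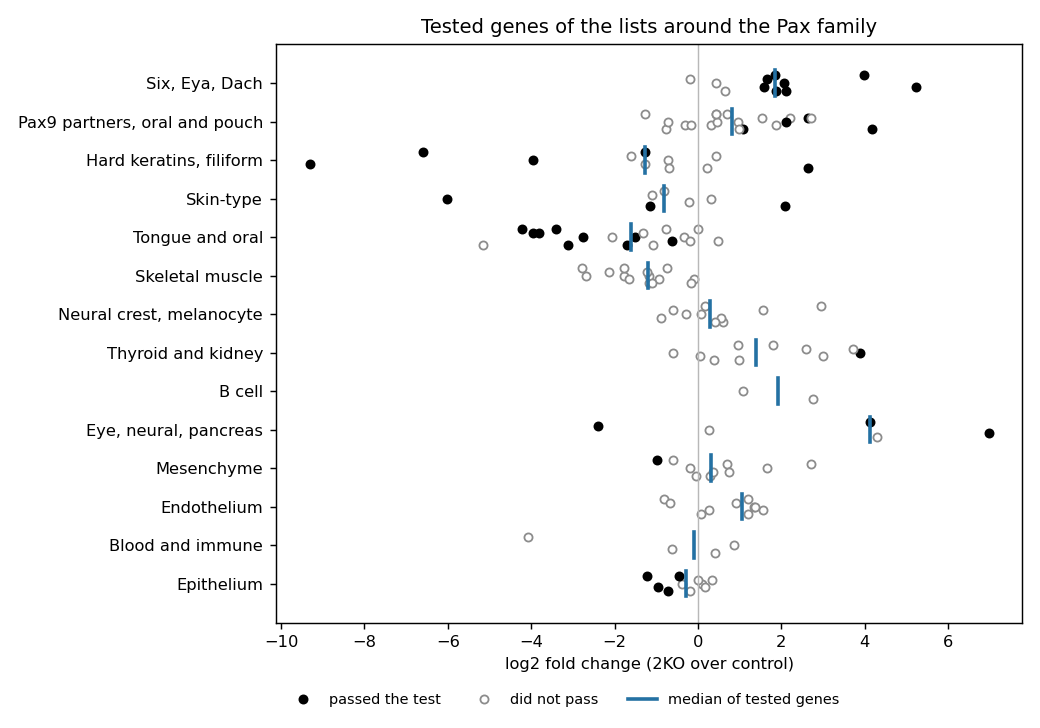
log2 fold change, 2KO over control, of the tested genes of 14 lists, 1 point per gene, filled where it passed the test, with the list median as a blue bar and genes with no control read at their lower bound. Genes of the network of Six2, Eya and Dach lie to the right (median 1.84), tongue and oral genes to the left (median -1.61).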

How the data were processed

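The deposited files hold whole-number read counts per gene, 1 file a library, and FPKM values of the 4 libraries in 1 table, both made by the authors. The build was mm10 and the tools were HTSeq 0.6.1, TopHat2 2.0.13, DESeq2 1.6.3 and Cufflinks 2.2.1, according to the submitters' processing notes. No annotation or strand setting is given in the sources.

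Deposited counts were tested with edgeR 4.0.16 in R 4.3.3 (TMM, filterByExpr, quasi-likelihood, two-sided, Benjamini-Hochberg over 15336 genes, threshold 0.05), which gave every adjusted p printed. A gene with 0 counts in a group got a lower bound against 3 counts over the group, and 1 to 3 counts a ratio with its 95% interval. The lower bounds take the level in the other group as measured. Neither they nor the intervals cover the spread between replicates. In simulated counts (2KO against control, 15243 genes) the fit recovered 46% of genes changed 2-fold and 73% of those changed 4-fold. There were 100 planted genes at each fold, none of the lowest levels, and 7 of 126 calls were false. Fewer genes were planted than were called in the data, so these rates need not hold there. Coordinates are from GENCODE M21. Members, lists, neighbours and the rules for named genes were chosen with earlier results of these data known. Of each list, up to 6 called genes were named by smallest p; Six4, Eya1, Eya3, Tg, Nkx2-1, Wt1, Sox10 and Foxd3 were named after their values were seen. Alternatives were other scalings, filters and tools, each library left out, the replicate block and limma on log2 of FPKM plus 1 or 0.1. Replicates differed beyond sampling noise (chi-square per degree of freedom 22.7 in 2KO and 28.7 in control). Protein sequences were not analysed here. Some genes counted in the lists and among the neighbours are not reported here by name.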

Additional observations from a re-analysis of the deposited data

How the results depend on the processing

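Over 12 count-based alternatives the log2 fold change lay between -1.18 and -1.04 for Pax9, 4.58 and 4.89 for Pax3, 0.73 and 1.04 for Pax1, 2.24 and 3.34 for Pax6 and 1.11 and 3.25 for Pax7; the members were chosen on this contrast, so these ranges describe the settings and are no support. Genes called higher numbered 1073, with limma on log2(FPKM + 1) 627, on log2(FPKM + 0.1) 472 and without a filter 0 (3764 at an unadjusted p under 0.05), and 839 to 1643 with a library left out, the most without control replicate 1. Genes called lower numbered 754, with no count filter 1242, on the FPKM scales 260, 186 and 0, and 537 to 1104 with a library left out. On log2(FPKM + 1), 70.7% of calls were higher, against 58.7% in the counts. List genes called higher numbered 16 (26 with no count filter, 10 on log2(FPKM + 0.1), 0 without an FPKM filter, 16 to 23 with a library left out), and lower 21 (32 with no count filter, 10, 10 and 0 on the FPKM scales, 24 to 27 with a library left out). Neighbours called higher numbered 6 (2, 2 and 0 on the FPKM scales, 3 to 5 with a library left out, the fewest without 2KO replicate 2), and lower 2 (0, 0 and 0 on the FPKM scales, 0 to 3 with a library left out, the fewest without 2KO replicate 1). The Pax9 share of Pax values by FPKM was 43.7% in 2KO and 75.8% in control, against 58.6% and 87.3% of reads. Ttn, at -1.64, ranged over -2.42 to 0.27 with a library left out, the second without control replicate 2. Replicate numbers were not taken to pair the libraries (correlation of deviations -0.0232); the block gave 1156 genes higher and 880 lower. For single genes, 105 combinations of gene and setting lost the call. Part of these were fixed by limma on log2(FPKM + 1) without a filter, which called 0 genes. The cause of the others was not tested. With 2 libraries a group, low genes such as Pax4, Pax5 and Pax8 cannot be compared at this depth.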
